A study of Mus musculus with 12 samples.

Results

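Aminoacyl-tRNA synthetases are the enzymes that join each amino acid to its transfer RNA, and the count table of these mouse mammary libraries held 7318 genes, of which 39 of this machinery are described here. They were chosen by gene symbol, with earlier results of these data known. They comprised 20 genes of cytosolic synthetases, 16 genes of mitochondrial synthetases, whose symbols end in 2, and 3 genes of scaffold proteins that bind synthetases together (Aimp1, Aimp2 and Eef1e1). All 39 had enough reads to be tested in every comparison. The comparison of interest was how the cytosolic and the mitochondrial enzymes responded when an inducible FGF receptor 1 was switched on in the gland.

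The libraries came from female FVB/N mice, 4 weeks of age, that carried both MMTV-Wnt1 and MMTV-iFgfr1. MMTV is a viral promoter active in mammary epithelium, and iFGFR1 is a receptor that the dimerizing compound AP20187 activates. Mice received AP20187 intraperitoneally for 6 h, and their controls received vehicle. Mammary glands 3, 4 and 5 were digested with collagenase A in the presence of cycloheximide, which arrests elongating ribosomes, and epithelial cells were enriched by brief centrifugation without a sort. From the cell pellet came a poly(A) RNA library and a library of ribosome footprints, the fragments of RNA that ribosomes protect from nuclease. There were 3 RNA libraries with AP20187, 3 RNA libraries with vehicle, 3 footprint libraries with AP20187 and 3 footprint libraries with vehicle. Every group carried both transgenes, so no group shows AP20187 without iFgfr1, and effects of the compound and of the receptor cannot be told apart. It is not stated whether a library is 1 mouse or a pool, so the p-values reflect variation among libraries that may be technical.

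Cytosolic synthetases supply the ribosomes that make nearly all cell protein. In mammals 8 of these 20 genes encode enzymes of the multisynthetase complex (Eprs, Iars, Lars, Mars, Qars, Rars, Kars and Dars), which the 3 scaffold proteins hold together. Mitochondrial synthetases are encoded in the nucleus, imported, and serve only the few proteins translated inside the organelle. Gars and Kars each encode the enzyme of both compartments, Eprs encodes a fused enzyme for glutamate and proline, and Farsa and Farsb encode the alpha and beta subunits of the phenylalanine enzyme. In many cell types the transcription factors ATF4, which acts when amino acids run short, and MYC, which acts in growth, are known to raise synthetase transcripts.

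The RNA libraries held 94513818 to 251874393 counts over the listed genes, and the footprint libraries held 1772969 to 11018709. The lowest count of any of the 39 genes was 217 in an RNA library and 8 in a footprint library, so the footprint values of low mitochondrial genes are the least precise. Log-scale correlations between libraries of a group were 0.958 to 0.987 for RNA and 0.861 to 0.960 for footprints. Fgfr1 RNA stood at 756.0, 1101 and 574.7 CPM with AP20187, against 339.9, 366.2 and 268.1 CPM with vehicle, and Wnt1 RNA at 184.1, 313.1 and 165.2 CPM, against 30.62, 44.98 and 11.15 CPM. Both genes were higher in all AP20187 libraries, and their counts can include transgene reads. CPM are counts relative to the library's total, here with library sizes scaled by edgeR's TMM method, so every difference is relative to the other genes.

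Cytosolic synthetase RNA rose with AP20187 nearly across the set. Of 20 genes, 16 rose, 0 fell and 4 did not pass the test (edgeR quasi-likelihood test, Benjamini-Hochberg adjusted p under 0.05), against 12.4% of all tested genes that rose, 13.9% that fell and 26.2% that passed in either direction. The median log2 fold change of AP20187 over vehicle was 0.72 for the 20 genes, with a range of -0.18 to 0.90, and 0.01 for all tested genes. In 17 of the 20 genes every AP20187 library lay above every vehicle library, which held for 21.9% of all tested genes. The summed level of the 20 genes was 4321, 3745 and 4171 CPM with AP20187, against 2862, 2995 and 2683 CPM with vehicle. All 3 AP20187 sums stood above all 3 vehicle sums.

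**Figure D1:**
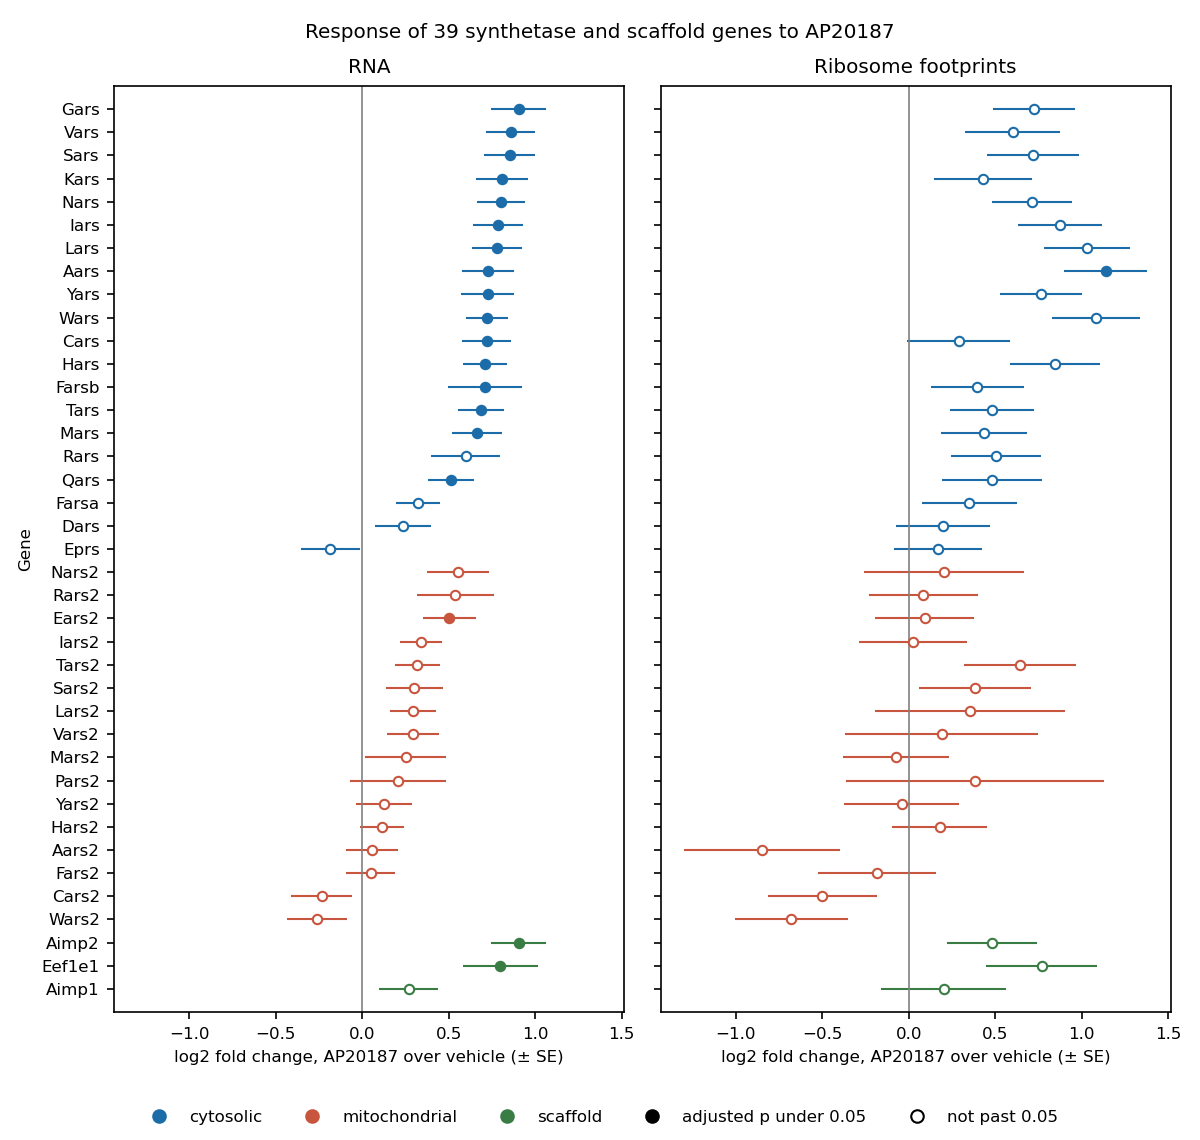
Log2 fold change of AP20187 over vehicle (horizontal axis, bars ± SE, n = 3 libraries a group) for each of the 39 genes (vertical axis), in RNA on the left and in ribosome footprints on the right. Filled points passed an adjusted p of 0.05: 16 cytosolic, 1 mitochondrial and 2 scaffold genes in RNA, and Aars alone in footprints.

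The largest rise among the enzymes was that of Gars, the glycine enzyme of cytosol and mitochondria (chr6:55038007-55079500, mm10). Its RNA stood at 100.4, 110.2 and 88.88 CPM with AP20187, against 50.59, 62.68 and 46.92 CPM with vehicle. The groups did not overlap, and the log2 fold change was 0.90 ± 0.16 (SE; adjusted p = 0.0087). Vars, the valine enzyme (chr17:35000987-35016322), had 167.0, 186.8 and 154.3 CPM with AP20187, against 98.3, 101.3 and 80.87 CPM with vehicle. The lowest AP20187 library was again above the highest vehicle library, with a log2 fold change of 0.86 ± 0.14 (adjusted p = 0.00775). Sars, the serine enzyme (chr3:108424865-108445209), had 266.3, 257.7 and 249.9 CPM with AP20187, against 138.9, 168.8 and 121.0 CPM with vehicle. Its AP20187 libraries lay close together and well above the others (0.85 ± 0.15, adjusted p = 0.0086).

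Nars, the asparagine enzyme, had 376.4, 317.6 and 371.2 CPM with AP20187, against 201.2, 223.8 and 185.4 CPM with vehicle (0.80 ± 0.14, adjusted p = 0.0086). Aars, the alanine enzyme (chr8:111033144-111057664), had 361.7, 295.1 and 268.8 CPM with AP20187, against 198.2, 190.6 and 171.0 CPM with vehicle. Its groups were apart as well (0.73 ± 0.15, adjusted p = 0.0138). Wars, the tryptophan enzyme, had 104.4, 90.84 and 91.32 CPM with AP20187, against 58.51, 58.57 and 56.82 CPM with vehicle, and its vehicle libraries hardly differed from each other (0.72 ± 0.12, adjusted p = 0.00852). Of the rest outside the complex, Yars (tyrosine, 0.72), Cars (cysteine, 0.72), Hars (histidine, 0.71), Farsb (0.71) and Tars (threonine, 0.69) also rose. Farsb had an adjusted p of 0.0421, the closest to the threshold among the cytosolic genes that rose. In Aars, 14.3% of annotated exon bases lie in Exosc6 on the same strand, so reads from the pair cannot be told apart there.

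**Figure D2:**
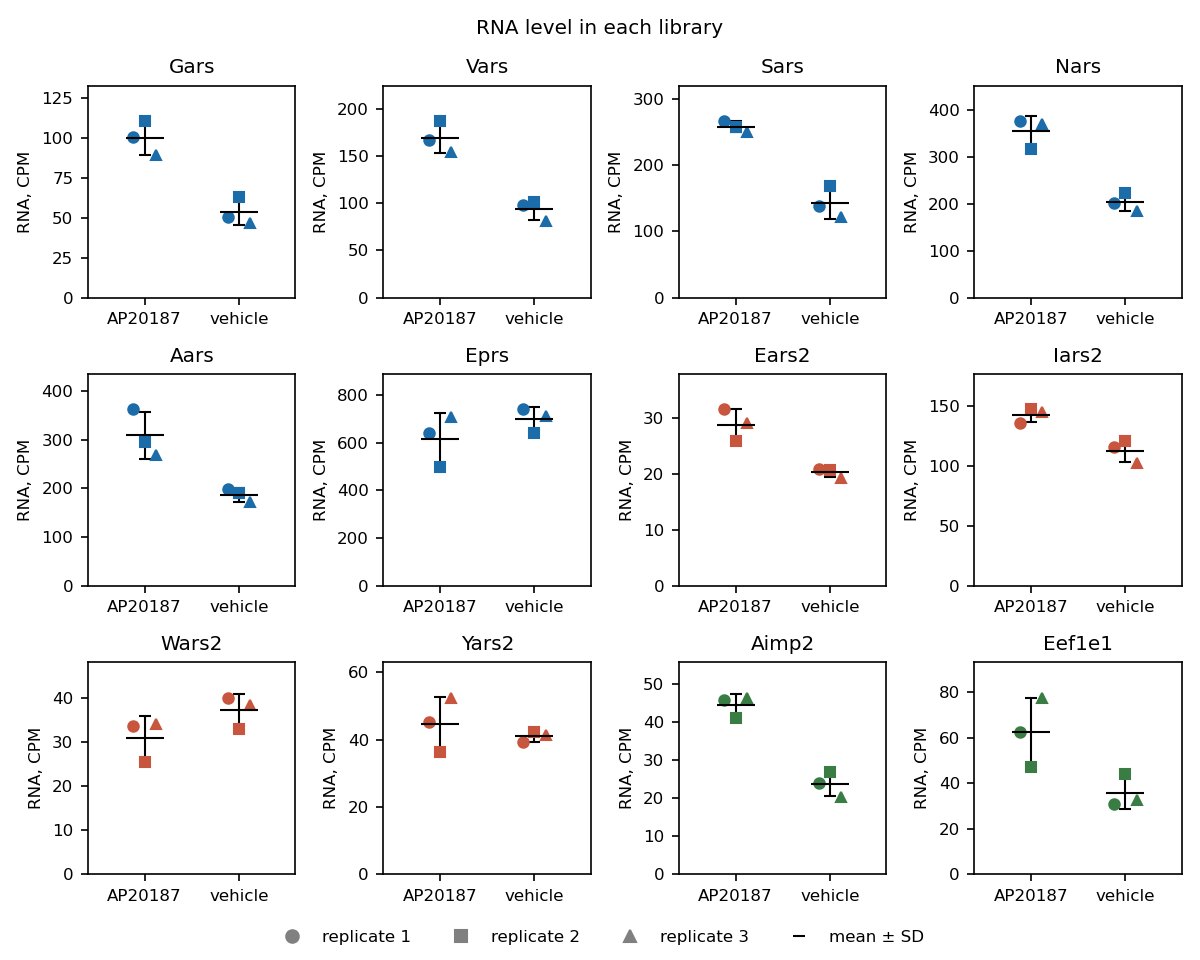
RNA level in CPM (vertical axis, from 0) in each of the 3 AP20187 and 3 vehicle libraries for 12 of the genes, with mean ± SD; marker shape gives the replicate number. In Gars, Vars, Sars, Nars, Aars, Ears2, Iars2, Aimp2 and Eef1e1 the AP20187 points lie above all vehicle points, whereas in Eprs, Wars2 and Yars2 the groups overlap.

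Enzymes of the multisynthetase complex were split. Of 8, 5 rose: Kars (lysine, 0.81 ± 0.15), Iars (isoleucine, 0.79 ± 0.14), Lars (leucine, 0.78 ± 0.14), Mars (methionine, 0.66 ± 0.14) and Qars (glutamine, 0.52 ± 0.13). Eprs had 639.1, 495.9 and 706.7 CPM with AP20187, against 738.3, 640.6 and 712.6 CPM with vehicle. It was the only cytosolic enzyme with a negative log2 fold change (-0.18 ± 0.17, adjusted p = 0.445), and its groups overlapped. Dars, the aspartate enzyme, had 154.7, 122.0 and 184.6 CPM with AP20187, against 122.0, 136.3 and 133.4 CPM with vehicle (0.24 ± 0.16, adjusted p = 0.306). Rars, the arginine enzyme, had 256.0, 177.2 and 294.6 CPM with AP20187, against 141.8, 182.1 and 157.2 CPM with vehicle, and AP20187 replicate 2 lay among the vehicle libraries (0.60 ± 0.20, adjusted p = 0.0572). The complex enzymes had a median of 0.63, and the 12 cytosolic genes outside it had a median of 0.72 with 11 that rose. The difference between these medians has no test.

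The gene outside the complex that did not pass was Farsa, with 147.3, 119.6 and 135.4 CPM with AP20187, against 109.3, 110.2 and 102.5 CPM with vehicle. Its groups did not overlap, but the log2 fold change of 0.32 ± 0.13 had an adjusted p of 0.0922. Farsb, which encodes the partner subunit of the same enzyme, had a log2 fold change of 0.71 ± 0.21. Grouped by catalytic fold, 8 of 10 class I genes and 8 of 10 class II genes rose, each class with a median of 0.72. Eprs, the fused enzyme for glutamate and proline, was counted in class I alone, so this split does not place its parts separately.

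Vehicle replicate 3 set part of the count: without it 9 cytosolic genes rose in place of 16, and Aars, Cars and Tars then had adjusted p-values of 0.0664, 0.0557 and 0.0538. The number was 12 without AP20187 replicate 1 and 12 without vehicle replicate 1, 15 without AP20187 replicate 3, 16 without vehicle replicate 2 and 18 without AP20187 replicate 2. The count over all tested genes, 1919 with every library, was 538 without vehicle replicate 3. It was 782 without AP20187 replicate 1 and 717 without vehicle replicate 1. It was 1570 without AP20187 replicate 3, 2040 without vehicle replicate 2 and 2214 without AP20187 replicate 2. Gars, Hars, Iars, Kars, Lars, Nars, Sars, Vars and Wars rose whichever library was left out. Mars, Qars and Yars were lost without AP20187 replicate 1, vehicle replicate 1 or vehicle replicate 3, and Farsb also without AP20187 replicate 3. The log2 fold changes of these 4 genes stayed between 0.43 and 0.92.

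Markers of cell types differed between the same libraries. Beside the counts that follow, 12.4% of all tested genes rose and 13.9% fell in RNA. Of the 13 luminal epithelial markers in the table, 8 rose and 3 fell, and their summed RNA was 8346 to 10530 CPM with AP20187, against 5314 to 6377 CPM with vehicle; Epcam, an epithelial adhesion protein, had 1444, 1303 and 1444 CPM, against 690.4, 716.6 and 644.3 CPM. Of 12 basal markers, 2 rose and 6 fell (3230 to 4945 CPM with AP20187, 5850 to 6724 CPM with vehicle). Of 11 fibroblast markers, 8 fell (1572 to 2133 CPM with AP20187, 4022 to 6787 CPM with vehicle). All 5 endothelial markers fell (336.2 to 370.7 CPM with AP20187, 608.4 to 818.3 CPM with vehicle), as did 3 of 6 adipocyte markers (93.19 to 167.7 CPM with AP20187, 314.2 to 541.2 CPM with vehicle). Of 5 macrophage and leukocyte markers, 2 rose (summed level 1349 to 1653 CPM with AP20187, 611.0 to 1196 CPM with vehicle). The sum was mostly Cd14, a lipopolysaccharide co-receptor, with a mean of 1242 CPM with AP20187 and 463.7 CPM with vehicle; Itgam also rose, and the other 3 had negative values that did not pass. Of 7 Schwann cell markers 1 rose and 5 fell (542.8 to 826.6 CPM with AP20187, 399.7 to 488.4 CPM with vehicle). The one that rose was the transcription factor gene Sox10, with a mean of 555.8 CPM with AP20187 and 111.6 CPM with vehicle, and the other 6, myelin genes among them, had negative values. No marker had 0 counts in any RNA library. The part of cell composition in the synthetase result was not tested, and in such bulk samples fewer cells of a type and less RNA per cell cannot be told apart.

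Promoters of these genes are shown because 16 cytosolic transcripts rose together and few mitochondrial ones did. RefSeq start sites (GRCm38.p6) matched 30 of the 39 genes, 13 cytosolic, 14 mitochondrial and 3 scaffold, and a window of 250 bases before to 50 after each start was searched on both strands. TGATGNAA, the core of the composite element bound by ATF4 with C/EBP proteins, occurred in 5 of 13 cytosolic windows (38.5%), in 0 of 14 mitochondrial windows, in 0 of 3 scaffold windows, and in 2.68% of the 5676 windows of counted genes. CACGTG, the palindromic E-box that MYC and other factors bind, occurred in 4 of 13 cytosolic windows (30.8%; Aars, Farsb, Iars and Tars), in 1 of 14 mitochondrial windows (Ears2), in 0 of 3 scaffold windows, and in 12.3% of those of counted genes. No match of either motif overlapped a match of the other. The 5 windows with TGATGNAA are printed 5′ to 3′ on the gene's strand from 120 bases before to 20 bases after the start, with the match on either strand in capitals.
Aars: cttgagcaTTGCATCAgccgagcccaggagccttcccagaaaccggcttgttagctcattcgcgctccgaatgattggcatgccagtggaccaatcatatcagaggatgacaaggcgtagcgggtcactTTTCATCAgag
Gars: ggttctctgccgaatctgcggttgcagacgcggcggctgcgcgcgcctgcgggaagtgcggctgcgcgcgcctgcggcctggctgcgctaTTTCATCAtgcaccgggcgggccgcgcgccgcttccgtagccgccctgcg
Iars: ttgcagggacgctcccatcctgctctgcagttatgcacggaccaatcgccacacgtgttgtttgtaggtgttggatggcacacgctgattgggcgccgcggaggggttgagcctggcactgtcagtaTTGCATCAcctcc
Tars: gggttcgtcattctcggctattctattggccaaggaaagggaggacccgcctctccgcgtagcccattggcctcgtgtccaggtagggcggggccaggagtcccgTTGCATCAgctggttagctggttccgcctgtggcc
Yars: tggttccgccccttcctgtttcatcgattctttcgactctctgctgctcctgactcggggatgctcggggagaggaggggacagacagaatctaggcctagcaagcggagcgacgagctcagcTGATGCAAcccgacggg

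The Aars stretch is chr8:111033722-111033861 on the plus strand and holds the motif at 112 bases before the start and again at base 10 of the transcript. Gars (chr6:55037881-55038020, plus strand) has it 30 bases before the start, and Tars (chr15:11399639-11399778, minus strand) 15 bases before. In Iars (chr13:49682010-49682149, plus strand) it begins at base 8 of the transcript, and in Yars (chr4:129189783-129189922, plus strand) at base 4. All 5 of these genes rose in RNA, with log2 fold changes of 0.69 to 0.90. Among the other 8 cytosolic genes with a window, Farsb, Kars, Mars, Qars and Sars rose, and Dars, Eprs and Farsa did not pass. A match describes letters in a window and not a bound site.

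Mitochondrial synthetase RNA was mostly higher with AP20187, by less than the cytosolic set. Of 16 genes, 1 rose, 0 fell and 15 did not pass, against 12.4% of all tested genes that rose and 13.9% that fell. The median log2 fold change was 0.27, with a range of -0.26 to 0.56, beside a median of 0.01 over all tested genes. In 7 of 16 genes every AP20187 library lay above every vehicle library, against 21.9% of all tested genes. In 0 of 16 every one lay below, against 23.1% of all tested genes. The summed level was 696.3, 668.3 and 736.7 CPM with AP20187, against 599.1, 619.1 and 560.7 CPM with vehicle, so the groups were apart by less than in the cytosolic set.

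Ears2, the mitochondrial glutamate enzyme (chr7:122037213-122067263), was the gene that rose. It had 31.44, 25.8 and 28.97 CPM with AP20187, against 20.86, 20.71 and 19.22 CPM with vehicle (0.50 ± 0.15, adjusted p = 0.045). Its groups did not overlap, but the call held only when AP20187 replicate 2 was left out and was lost without any of the other 5 libraries, with adjusted p up to 0.163. Nars2, the asparagine enzyme, had 51.88, 36.55 and 55.56 CPM with AP20187, against 31.86, 34.12 and 32.0 CPM with vehicle (0.56 ± 0.18, adjusted p = 0.0528). Rars2 had a similar log2 fold change of 0.54 ± 0.22 (adjusted p = 0.106), with overlapping groups.

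Iars2, the isoleucine enzyme, had 135.4, 147.0 and 144.8 CPM with AP20187, against 115.5, 120.7 and 102.0 CPM with vehicle (0.34 ± 0.12, adjusted p = 0.072). Its groups did not overlap; 22.9% of its exon bases lie opposite Rab3gap2. Tars2 (0.32), Sars2 (0.30), Lars2 (0.29) and Vars2 (0.29) also had higher values in every AP20187 library without passing. At the other end, Wars2, the tryptophan enzyme, had 33.52, 25.32 and 34.0 CPM with AP20187, against 39.99, 32.88 and 38.42 CPM with vehicle (-0.26 ± 0.17, adjusted p = 0.282). Cars2 (-0.23) was the other gene with a negative value, and the remaining Mars2, Pars2, Yars2, Hars2, Aars2 and Fars2 lay between 0.05 and 0.25.

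Of the scaffold genes, Aimp2 and Eef1e1 rose. Aimp2 (chr5:143902704-143909847) had 45.59, 40.98 and 46.3 CPM with AP20187, against 23.91, 26.8 and 20.29 CPM with vehicle (0.90 ± 0.16, adjusted p = 0.00889). Its groups were well apart, and it passed whichever library was left out. Reads of Aimp2 are less certain than most, since 29.4% of its exon bases lie opposite Eif2ak1. Eef1e1, also known as AIMP3, had 62.43, 47.18 and 77.68 CPM with AP20187, against 31.01, 44.2 and 32.45 CPM with vehicle (0.80 ± 0.22, adjusted p = 0.0322). Its groups were apart by a small margin between AP20187 replicate 2 and vehicle replicate 2, and the call was lost without AP20187 replicate 1, AP20187 replicate 3, vehicle replicate 1 or vehicle replicate 3, with adjusted p up to 0.122. Aimp1 had 72.32, 66.46 and 87.77 CPM with AP20187, against 54.25, 74.38 and 59.46 CPM with vehicle, and did not pass (0.27 ± 0.17, adjusted p = 0.265).

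For 13 amino acids a cytosolic gene was set against the mitochondrial gene of the same symbol with a final 2. Their ratio within a library does not depend on library size. The glutamate, proline and phenylalanine genes do not match by symbol in this way and are not among the pairs. In RNA the log2 fold change of Eprs was -0.18, against 0.50 for Ears2 (glutamate) and 0.21 for Pars2 (proline). For phenylalanine it was 0.32 for Farsa and 0.71 for Farsb, against 0.05 for Fars2. In RNA the log2 ratio of the cytosolic to the mitochondrial gene was higher on average with AP20187 in 13 of 13 pairs, with a median difference of 0.56 and a range of 0.06 to 0.99. In 10 pairs all AP20187 ratios lay above all vehicle ratios. The largest difference was that of Wars over Wars2, with log2 ratios of 1.64, 1.84 and 1.43 with AP20187, against 0.55, 0.83 and 0.56 with vehicle. Cars over Cars2 came next, with 1.74, 1.29 and 1.16, against 0.47, 0.34 and 0.52. In both pairs the groups were far apart compared with their spread, and the mitochondrial gene had a negative log2 fold change.

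The smallest RNA difference was that of Rars over Rars2, with log2 ratios of 2.38, 2.36 and 2.29 with AP20187, against 2.29, 2.22 and 2.35 with vehicle, and the groups overlapped. Mars over Mars2 and Yars over Yars2 also overlapped. With 3 libraries against 3 a 2-sided exact permutation test cannot go below p = 0.1. That was the value for the 10 pairs whose groups were apart, and adjusted over the 13 pairs it was 0.13.

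**Figure D3:**
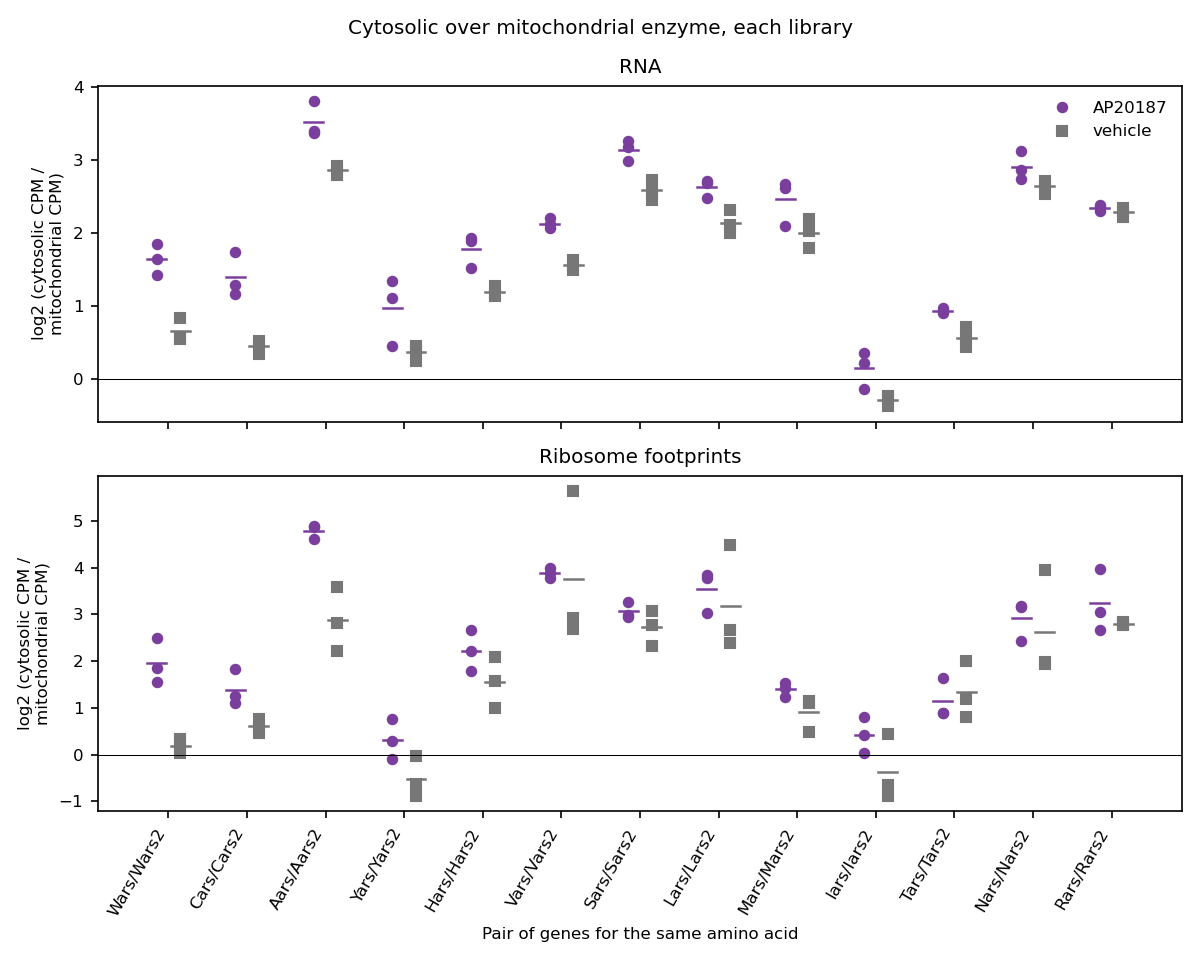
Log2 ratio of cytosolic over mitochondrial CPM (vertical axes) for each of 13 amino acids (horizontal axis), in every AP20187 and vehicle library, for RNA above and ribosome footprints below; short lines are group means. In RNA all 13 AP20187 means lie above the vehicle means and 10 pairs do not overlap; in footprints 12 means lie above and the Aars, Cars, Mars and Wars pairs do not overlap.

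In ribosome footprints the cytosolic genes had positive log2 fold changes in 20 of 20 cases, with a median of 0.55 and a range of 0.17 to 1.14, but 1 passed the test. Over all tested genes the median was 0.03, 0.937% rose, 1.6% fell and 2.54% passed in either direction. The AP20187 and vehicle libraries did not overlap, with AP20187 above, in 11 of the 20 genes and in 11.4% of all tested genes. Their summed footprints were 5374, 5110 and 5595 CPM with AP20187, against 3552, 3575 and 3688 CPM with vehicle, and the vehicle sums hardly differed. At an unadjusted p under 0.05 the count was 9 of 20, beside 1160 of the 7041 tested genes.

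Aars was the gene that rose, with 374.1, 343.7 and 332.8 footprint CPM with AP20187, against 159.3, 183.2 and 135.1 CPM with vehicle (1.14 ± 0.24, adjusted p = 0.0375). Its groups were far apart. Leaving out AP20187 replicate 1, AP20187 replicate 2 or any vehicle replicate ended the call, with adjusted p up to 0.162 and log2 fold changes of 1.03 to 1.26. The count over all tested genes, 179 with every library, was 2 without AP20187 replicate 1 and 186 without AP20187 replicate 2. It was 0 without vehicle replicate 1, 0 without vehicle replicate 2 and 3 without vehicle replicate 3. Wars had 104.7, 122.9 and 87.58 CPM with AP20187, against 49.25, 49.61 and 49.99 CPM with vehicle (1.08 ± 0.25, adjusted p = 0.0526). Lars had 335.6, 319.2 and 327.8 CPM with AP20187, against 134.6, 199.0 and 147.1 CPM with vehicle (1.03 ± 0.25, adjusted p = 0.0555). Both lay just outside the threshold without overlap between their groups.

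Same-numbered footprint libraries of the treatments deviated together, but same-numbered RNA libraries did not all do so, and the labels state no pairing. A fit with the replicate number as a block is therefore given as an alternative only. With the block 715 of all 7041 tested genes passed in either direction, against 179 without it. In this block fit 10 of the 39 genes rose and 0 fell. They were Aars (1.15, adjusted p = 0.00234), Lars (1.05, adjusted p = 0.00501), Wars (1.06, adjusted p = 0.009), Hars (0.85, adjusted p = 0.0112), Iars (0.87, adjusted p = 0.0179), Gars (0.73, adjusted p = 0.0311), Nars (0.71, adjusted p = 0.033), Yars (0.76, adjusted p = 0.0338), Sars (0.69, adjusted p = 0.0448) and the scaffold gene Eef1e1 (0.75, adjusted p = 0.045). No mitochondrial gene passed in either fit. DESeq2 without the block called 528 genes in all, 6 of them cytosolic synthetase genes: Aars, Hars, Iars, Lars, Nars and Wars.

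The lowest footprint log2 fold changes among cytosolic genes were those of Eprs (0.17 ± 0.25) and Dars (0.20 ± 0.27), which also stood lowest in RNA. Eprs had 580.5, 524.6 and 656.0 footprint CPM with AP20187, against 458.1, 476.5 and 628.7 CPM with vehicle, and the groups overlapped. Fibroblast markers moved in the footprints too: 7 of 11 fell, with summed levels of 3585 to 5595 CPM with AP20187, against 12960 to 34110 CPM with vehicle. Luminal markers summed to 9144 to 14310 CPM with AP20187, against 7683 to 10120 CPM with vehicle, with 1 of 13 that rose and 2 that fell. Among all tested genes 0.937% rose and 1.6% fell in footprints. The part of these marker shifts in the synthetase result was not tested.

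Mitochondrial footprints showed no common direction. Of 16 genes, 0 passed in edgeR, DESeq2 or limma voom without the block, and 0 passed with it. The count at an unadjusted p under 0.05 was 0 without the block (1160 of all 7041 tested genes), 2 with it and 4 with all 12 libraries in a single model. Without the block 10 had positive values, with a median of 0.09 and a range of -0.85 to 0.64. Summed footprints were 768.2, 677.0 and 856.1 CPM with AP20187, against 779.9, 655.8 and 792.8 CPM with vehicle, and the groups overlapped. Tars2, the threonine enzyme, had the highest log2 fold change, with 76.03, 56.41 and 90.5 CPM with AP20187, against 30.65, 54.52 and 57.32 CPM with vehicle (0.64 ± 0.32, adjusted p = 0.363). AP20187 replicate 2 lay just below vehicle replicate 3, so its groups overlapped.

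Aars2, the mitochondrial alanine enzyme, had 12.86, 11.65 and 13.53 footprint CPM with AP20187, against 34.48, 15.26 and 19.11 CPM with vehicle (-0.85 ± 0.45, adjusted p = 0.391). Wars2 had 35.76, 21.77 and 24.42 CPM with AP20187, against 43.78, 48.52 and 39.78 CPM with vehicle (-0.68 ± 0.33, adjusted p = 0.337). These were the 2 mitochondrial genes with every AP20187 library below every vehicle library, against 11.8% of all tested genes. Without the block 0 scaffold genes passed, with log2 fold changes of 0.77 for Eef1e1, 0.48 for Aimp2 and 0.20 for Aimp1. Eef1e1, which passed in the block fit, was the scaffold gene with an unadjusted p under 0.05.

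The pair ratios in footprints followed with more scatter. The cytosolic over mitochondrial log2 ratio had a higher mean with AP20187 in 12 of 13 pairs, with a median difference of 0.48 and a range of -0.19 to 1.92. Aars over Aars2 differed most, with log2 ratios of 4.86, 4.88 and 4.62 with AP20187, against 2.21, 3.59 and 2.82 with vehicle. Wars over Wars2 had 1.55, 2.50 and 1.84 with AP20187, against 0.17, 0.03 and 0.33 with vehicle, and the Cars and Mars pairs were apart as well. Tars over Tars2 was the pair with a lower mean, with 0.88, 1.64 and 0.89 with AP20187, against 2.01, 1.18 and 0.80 with vehicle, and its groups overlapped. The exact permutation p of the 4 pairs that were apart was 0.1, the smallest possible, or 0.325 adjusted over the 13 pairs. The count of 4 pairs with AP20187 above became 7 without vehicle replicate 2.

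No gene passed edgeR's test for footprints relative to RNA, the translational efficiency. Standard errors of the log2 difference ran from 0.25 to 0.68 in the 39 genes, so the count of 0 does not show that the ratio was equal between the treatments. In the model over all 12 libraries 0 of 39 genes and 0% of the 7315 tested genes passed in edgeR. An unadjusted p under 0.05 was found for 1 of the 39 and for 350 of the 7315. DESeq2 called 10 genes in all, none of them among the 39, and limma voom called 0. The median log2 difference was -0.12 for cytosolic, -0.30 for mitochondrial and -0.11 for scaffold genes, against -0.08 for all tested genes. The smallest p was that of Aars2, whose log2 footprint to RNA ratio, set to 0 at the median gene of each pellet, was -0.91, -1.19 and -0.82 with AP20187, against 0.50, -0.74 and -0.21 with vehicle (-0.95 ± 0.41 in the model, edgeR adjusted p = 0.988). The smallest among cytosolic genes was that of Cars (-0.48 ± 0.32, adjusted p = 0.988) and among scaffold genes that of Aimp2 (-0.47 ± 0.28, adjusted p = 0.988).

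The classes also stood at different footprint to RNA ratios, given here as a description without a test. Relative to the median of 7041 genes, the log2 footprint to RNA ratio had a class median of 0.50 with AP20187 and 0.69 with vehicle for cytosolic genes, with 20 and 16 of 20 genes above 0. For mitochondrial genes the medians were 0.15 with AP20187 and 0.38 with vehicle, with 9 and 10 of 16 genes above 0. The 3 scaffold genes stood highest, with medians of 1.69 with AP20187 and 1.72 with vehicle. These ratios are not per length, so genes with a short coding part in a long transcript and the reverse are not on equal terms. RNA and footprint libraries were matched by replicate number. Their deviations from group means correlated at r = 0.450, 0.519 and 0.370 with AP20187, and at 0.053, 0.109 and 0.345 with vehicle. Vehicle RNA replicate 2 had a higher r with footprint replicate 1 (0.155), so the vehicle pellets are less certain.

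**Figure D4:**
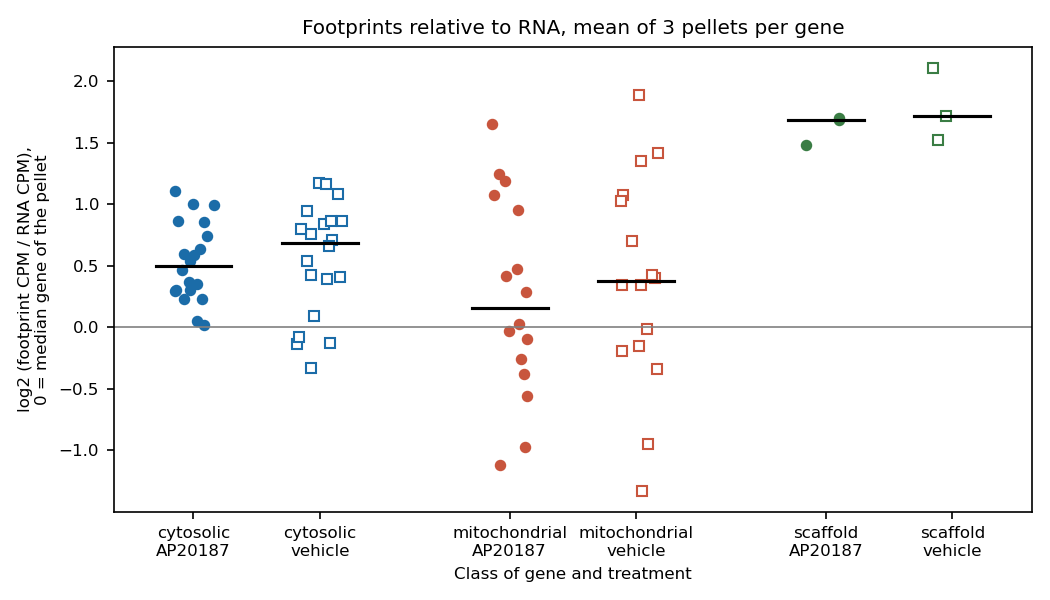
Log2 ratio of footprint CPM over RNA CPM (vertical axis), set to 0 at the median of 7041 genes in each pellet; each point is a gene's mean over 3 pellets, lines are class medians, and AP20187 stands left of vehicle in each class (horizontal axis). Cytosolic medians are 0.50 and 0.69, mitochondrial medians 0.15 and 0.38, and the scaffold genes lie between 1.48 and 2.11.

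Within the mitochondrial class the spread was wide. Mars2, the methionine enzyme, had the highest ratio, with a mean of 1.65 ± 0.50 with AP20187 and 1.88 ± 0.35 with vehicle (SD, n = 3 pellets each). Vars2, the valine enzyme, had the lowest, at -1.12 ± 0.20 with AP20187 and -1.33 ± 1.30 with vehicle. The vehicle ratios of Vars2 were -0.82, -2.80 and -0.36, from 32, 8 and 81 footprint reads. Among cytosolic genes Gars (1.00 ± 0.14 with AP20187, 1.17 ± 0.18 with vehicle) and Farsa (1.11 ± 0.31 and 1.09 ± 0.29) stood high, and Eprs (0.05 ± 0.12 and -0.33 ± 0.24) and Iars (0.02 ± 0.06 and -0.08 ± 0.20) stood low.

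Levels can be compared between genes only per length. Per kilobase of the principal transcript, cytosolic RNA had a class median of 69.72 CPM per kb with AP20187 and 40.04 CPM per kb with vehicle, mitochondrial RNA 13.46 and 11.33 CPM per kb, and scaffold RNA 37.38 and 19.97 CPM per kb. With AP20187 the highest were Nars (129 ± 11.9 CPM per kb), Eprs (125 ± 21.9) and Rars (115 ± 28.4), whose SDs overlap. With vehicle Eprs stood first (142 ± 10.3 CPM per kb), above Rars (76.0 ± 9.64) and Nars (74.1 ± 7.03), which did not differ beyond their SDs. The lowest cytosolic gene was Cars (19.96 ± 2.51 CPM per kb with AP20187, 12.1 ± 0.307 with vehicle). The mitochondrial genes ran up to Tars2 with AP20187 (32.3 ± 3.09 CPM per kb) and to Yars2 with vehicle (26.0 ± 1.03), and down to Pars2 (1.27 ± 0.111 with AP20187, 1.10 ± 0.144 with vehicle).

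Per kilobase of coding sequence, cytosolic footprints had a class median of 117 CPM per kb with AP20187 and 70.7 CPM per kb with vehicle, mitochondrial footprints 26.3 and 27.7 CPM per kb, and scaffold footprints 245 and 186 CPM per kb. Sars was the highest cytosolic gene in both groups (318 ± 82.9 CPM per kb with AP20187, 194 ± 15.05 with vehicle), and Eef1e1 was at the same level with AP20187 (318 ± 117). Yars2 led the mitochondrial genes (72.1 ± 27.4 CPM per kb with AP20187, 74.1 ± 20.9 with vehicle). The region in which footprints were counted is not given in the sources used here, so these densities are approximate.

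Other genes around the synthetases, in lists also chosen with earlier results of these data known, responded unevenly in RNA. A list of synthetase partners and tRNA handling had 34 genes in the count table, among them genes for tRNA modification, processing and export. Of these 34, 8 rose and 2 fell, with a median log2 fold change of 0.26. Of all tested genes 12.4% rose and 13.9% fell, with a median of 0.01. Trmt61a, a tRNA methyltransferase subunit, had 43.39, 31.25 and 41.17 CPM with AP20187, against 19.14, 19.8 and 17.96 CPM with vehicle (1.03 ± 0.17, adjusted p = 0.0082). Mettl1, a tRNA guanosine methyltransferase (0.94 ± 0.17), Xpot, the tRNA exporter (0.70 ± 0.13), and Aarsd1, a relative of the alanine enzyme's editing domain (0.79 ± 0.18), rose as well. Tarsl2, a Tars-like gene of this list that the symbol rule leaves out, did not pass (0.26 ± 0.14, edgeR adjusted p = 0.21). Another 17 genes were those of RNA polymerase III, which transcribes tRNAs, and of its associated factors and regulators. Of these, 0 rose and 1 fell (Gtf3c4, -0.50 ± 0.15), with a median of 0.05. The same 12.4% and 13.9% stand beside these counts and those of the elongation factors. Of 7 elongation factor genes, 0 rose and Eef1a2 fell at the limit of detection (0, 0 and 0.04 CPM with AP20187, 0.11, 0.11 and 0.33 CPM with vehicle). Eef1a1, which brings charged tRNA to the ribosome, had 6889, 7705 and 7297 CPM with AP20187, against 6576, 7130 and 5559 CPM with vehicle (0.18 ± 0.18, adjusted p = 0.479).

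Of 12 genes listed for mitochondrial translation, tRNA-modifying enzymes among them, 5 rose and 0 fell, with a median of 0.28. Of all tested genes 12.4% rose and 13.9% fell. They were led by Gtpbp3, a mitochondrial tRNA-modifying GTPase, with 47.65, 51.52 and 42.97 CPM with AP20187, against 19.67, 24.96 and 15.07 CPM with vehicle (1.25 ± 0.21, adjusted p = 0.00776). The elongation factors Tsfm (0.92 ± 0.17) and Tufm (0.50 ± 0.12) and the ribosome recycling factor Gfm2 (0.64 ± 0.14) were among them. Trmu, another tRNA-modifying enzyme, also rose (0.50 ± 0.15). The count of these genes that rose, translation factors and tRNA-modifying enzymes together, was 5 of 12 beside 1 of 16 mitochondrial synthetases. The difference was not tested.

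Of 32 genes listed for the amino acid response, targets and regulators around ATF4, 18 were in the count table. Of these 18, 10 rose and 1 fell (Cebpg), with a median of 0.66, against 12.4% and 13.9% of all tested genes. Values were negative in 6 of the 18. Slc38a2, a neutral amino acid transporter, had 185.1, 365.3 and 146.5 CPM with AP20187, against 481.5, 375.3 and 557.9 CPM with vehicle (-1.02 ± 0.33, adjusted p = 0.0514). Asns, asparagine synthetase, did not pass either (0.27 ± 0.15, adjusted p = 0.193). Slc7a5, the light chain of a transporter of large neutral amino acids, had 582.1, 605.5 and 410.8 CPM with AP20187, against 188.3, 196.4 and 133.6 CPM with vehicle (1.62 ± 0.21, adjusted p = 0.0059). Gpt2, a mitochondrial alanine transaminase (1.33 ± 0.18), Eif4ebp1, a translation inhibitor (1.28 ± 0.23), and Aldh18a1, an enzyme of proline synthesis (0.91 ± 0.18), rose too. In footprints 2 of 17 rose, against 0.937% of all tested genes: Slc7a5 (1.29 ± 0.25, adjusted p = 0.029) and Gpt2 (1.31 ± 0.29, adjusted p = 0.0441). Of 12 MYC target and growth genes 4 rose and 1 fell in RNA, with a median of 0.09, against 12.4% and 13.9% of all tested genes. Srm, spermidine synthase, had 112.8, 114.3 and 104.2 CPM with AP20187, against 36.43, 44.06 and 26.45 CPM with vehicle (1.63 ± 0.19). The nucleolar protein gene Nop58 had 611.2, 516.2 and 786.4 CPM, against 1117, 1029 and 1600 CPM (-0.97 ± 0.23, adjusted p = 0.0203). In footprints 0 of these 12 genes rose and 0 fell, against 0.937% and 1.6% of all tested genes. The footprint value of Srm was 0.39 ± 0.37 (edgeR adjusted p = 0.671), and that of Nop58 was -1.09 ± 0.32 (adjusted p = 0.109).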

How the data were processed

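Poly(A) RNA and ribosome footprints were measured in 12 libraries, 3 in each of 4 groups named in the labels. The authors deposited unnormalized read counts for 7318 genes, and how these genes were selected, the strand setting, the annotation and the counted region were not given in the sources used here. HTSeq, Bowtie2, STAR, cutadapt and bcl2fastq 1.8.3 and the build mm10 are named, without roles, per the submitters' processing notes.

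Genes passing edgeR's filterByExpr were tested with TMM scaling and edgeR 4.0.16's 2-sided quasi-likelihood test in R 4.3.3, within RNA libraries, within footprint libraries, and as the interaction of assay and treatment over all 12, with Benjamini-Hochberg adjustment over all tested genes and a threshold of 0.05. This gave 7314, 7041 and 7315 tested genes. Alternatives were DESeq2 1.42.0, limma 3.58.1 (voom), DESeq2 size factors, no filter, a mean count of at least 50, a replicate block, all libraries in a single model, and leaving out each library. The edgeR procedure was checked on simulated counts with known changes; it recovered far fewer of them in footprints than in RNA and none in the interaction.

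1 item matched by the symbol rule is not reported here. All 39 members could be named; in translational efficiency the smallest p of each class; in pathway and cell type lists up to 4 and 2 genes with the smallest RNA p. Cebpg, the single gene of its list that fell, Slc38a2, Asns, Tarsl2 and Trmu were named after their values were seen. Members and lists were chosen with earlier results of these data known. Not all listed genes were in the count table. It held 34 of 39 genes of synthetase partners and tRNA handling and 17 of 24 of RNA polymerase III. It held 12 of 20 genes of mitochondrial translation factors and tRNA-modifying enzymes. It held 18 of 32 genes of the amino acid response and 12 of 15 MYC and growth genes. Footprint libraries of the same number correlated in their deviations from group means (r = 0.197, 0.268 and 0.380). The same-numbered RNA libraries gave r = 0.186, -0.051 and -0.101. No pairing is stated in the labels, so a pairing of samples by number is not established. RNA and footprints came from the same pellet, per the labels' protocols, and the libraries of a pellet were matched here by replicate number. Gene positions and exon overlaps are from GENCODE for GRCm38, promoters from RefSeq. Of the 39 genes, 15 have exon bases in common with another annotated gene. No molecular identifiers are named in the labels, so count-based errors within a library cover counting only.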

Additional observations from a re-analysis of the deposited data

How the results depend on the processing

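Of the RNA counts, members that passed numbered 19, with 10 to 24 when a library was left out, 21 with DESeq2, 16 with the replicate block and 14 with all 12 libraries in a single model. Cytosolic genes that rose numbered 9 to 18 when a library was left out. Mitochondrial genes that rose numbered 1, with 2 under DESeq2 (Ears2 and Nars2), 0 with the block, 0 with all 12 libraries and 0 to 4 when a library was left out. In footprints 1 member passed, with 6 under DESeq2, 2 under voom, 10 with the replicate block, 8 with all 12 libraries and 0 to 2 when a library was left out; cytosolic genes accounted for 6, 2, 9, 8 and 0 to 2 of these. Pairs with footprint ratios above numbered 4 to 7 on leaving out a library, an alternative added after seeing the data. The block in RNA rests on a number alone (r = 0.186, -0.051 and -0.101), and not every RNA library correlated best with its own number. Over all genes 1919 passed in RNA, with 1281 under the block, 2489 under DESeq2, 663 with all 12 libraries and 538 to 2214 when a library was left out; 179 passed in footprints, with 715, 528, 758 and 0 to 186. No member passed for translational efficiency in any alternative, the pellet block included.

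Signs changed on leaving out a library for RNA of Fars2 (-0.026 to 0.11) and Aars2 (-0.00282 to 0.13), and for footprints of Iars2 (-0.23 to 0.19), Rars2 (-0.051 to 0.27), Yars2 (-0.37 to 0.19), Aimp1 (-0.12 to 0.59), Dars (-0.027 to 0.38), Nars2 (-0.19 to 0.48), Fars2 (-0.37 to 0.064), Lars2 (-0.077 to 0.95), Vars2 (-0.21 to 0.60) and Mars2 (-0.25 to 0.15). With all 12 libraries in a single model footprint Iars2 stood at -0.028. The cause was not tested. Footprint depth limits the mitochondrial genes, with 8 to 81 reads per library in Vars2 with vehicle.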
